A study of Homo sapiens with 35 samples.

Results

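The MYC regulatory domain at 8q24 was taken as every peak of open chromatin with its summit, the position of highest signal, on chromosome 8 between 127000000 and 130000000 of GRCh38. It held 472 of the 308732 peaks of the series. Membership rests on position alone and on no measured value. The stretch of 3 Mb runs from the gene desert before MYC, through MYC and the long noncoding RNA gene PVT1, to the far enhancers of blood cells and the gene CYRIB.

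Open chromatin was measured by ATAC-seq, in which a transposase cuts and tags accessible DNA, in blood progenitors differentiated from the established embryonic stem cell line H1, of human origin. The labels describe 12 libraries of doxycycline-treated doxee17 cultures with ectopic MYC, 11 of untreated doxee17 cultures (both batch 1) and 12 of untreated H1 cultures (batch 2), on 6 days from day 10 to day 20. All 35 are labelled as H1-derived progenitors, while the design text counts 44 libraries. The labels name neither the promoter and sequence of the ectopic MYC copy nor whether doxee17 is a single clone. The values analysed here are a single peak list for all libraries, so treated and untreated cultures, days and lines were not compared, and values carry no replicate error. Opening at the endogenous MYC gene and reads of an ectopic copy that align there cannot be told apart in such a list.

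MYC encodes a transcription factor that pairs with MAX and drives growth and proliferation, and its gene stands almost alone among coding genes in a long desert. Its expression in each tissue depends on separate distant enhancers, several of them far outside the gene. Those of blood stem and progenitor cells form a cluster far downstream, within and beside the noncoding gene CCDC26, described first in mouse as the blood enhancer cluster. A different element, bound by NOTCH in T cell leukaemia, lies between PVT1 and that cluster. The desert before MYC holds noncoding RNA genes and risk loci of colon and prostate cancer.

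The fold given for each peak is the authors' enrichment at its summit over a single genome-wide background, a linear ratio. The values match a background of 93.5 overlapping reads or fragments. The weakest peak of the list rests on 124 of them and the median peak on 326. Intervals on a fold are exact Poisson 95% intervals from this count. Intervals on a share of peaks are exact Clopper-Pearson 95% intervals. All cover counting error only, and neighbouring peaks are not independent. No test of a difference between intervals could be made, so the comparisons below are descriptions of this one list. Marker genes of the labelled cell type and of other cells were looked up. The share of all genes with a summit within 1 kb of an end was not counted. DNMT3B and COL1A1 stood above several progenitor markers, among them KIT (59.8) and GATA1 (21.9), and below SPI1, RUNX1 and ITGA2B (113). These values therefore do not decide the cell type. A summit lay within 1 kb of an end of 8 of 9 progenitor markers (median 37.9-fold; SPI1 109, RUNX1 80.9, CD34 14.8, and TAL1 none, its end lying under a 105-fold peak), 4 of 6 pluripotency markers (median 2.17; DNMT3B 74.8, SOX2 17.6, POU5F1 1.93, and LIN28A none, its end lying under a 37.7-fold peak) and 2 of 5 markers of other tissues (COL1A1 60.6, KRT5 2.08, ALB none).

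Peaks were more closely packed in the MYC domain than over most of the genome, while their median fold was close to that of other peaks. The domain held 157 peaks per Mb (Poisson interval 143 to 172), against 98.1 per Mb on the rest of chromosome 8. Peaks covered 11.2% of its bases, against 6.81% of the rest of the chromosome, whose length was counted from its start to its last peak. Of 997 adjoining windows of 3 Mb that tile the other sequence, chromosome Y left out, 190 (19.1%) held more peaks than the domain, and the median window held 291 (interquartile range 165 to 429). By coverage, 219 windows lay above the domain.

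Median fold was 3.58 in the domain (interval 3.13 to 3.90) and 3.46 over all other peaks. The domain ranged from 1.45 to 134-fold, with an interquartile range of 2.18 to 7.25, against 2.12 to 8.59 elsewhere. Strong peaks, here those at 10-fold or more, numbered 90, which is 19.1% of the members (interval 15.6% to 22.9%). In the whole list 22.1% of peaks passed that fold, so the domain's share lay near the background. Very strong peaks, at 30-fold or more, numbered 22 (4.66%, interval 2.94% to 6.97%), below the 7.99% of the whole list. Weak peaks under 2-fold made up 18.2% of members, against 21.1% of the whole list.

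The domain has few coding genes, and few of its peaks lay at their ends. Only 3 had a summit within 1 kb of a coding gene end (0.636% of members, against 6.98% elsewhere): 14.5-fold at MYC, 4.83-fold at GSDMC and 2.12-fold at CYRIB. The main MYC peak is not among them, since its summit lies farther off. Although it covers the MYC start, it is counted by its summit among the peaks outside coding genes. Peaks at such ends had a median of 20.5-fold in the rest of the list. Among peaks outside coding genes, 18.7% of 418 in the domain were strong (interval 15.0% to 22.7%), against 20.4% of 131512 elsewhere, and 4.55% were very strong, against 5.39%. Of all members, 50.2% had their summit in a gene that codes for no protein, against 11.9% of peaks elsewhere. Long noncoding genes such as PVT1 and CCDC26 fill much of the domain.

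**Figure D1:**
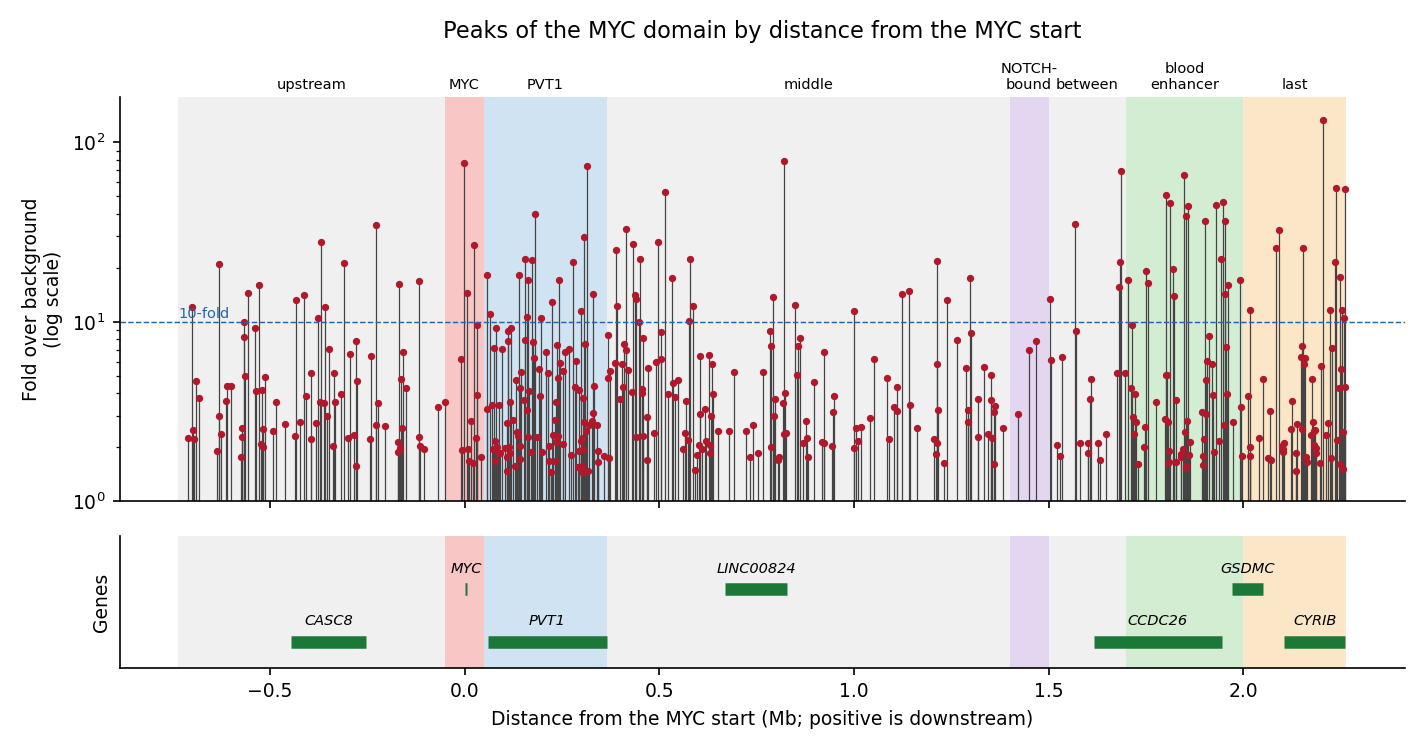
Fold over background (log axis) of each of the 472 peaks against the distance of its summit from the MYC start, with the sub-intervals shaded and 7 of the genes drawn below. Strong peaks, above the dashed line at 10-fold, crowd in PVT1, from 1.7 to 2.0 Mb downstream and at CYRIB, where peaks of all strengths are dense. The NOTCH-bound enhancer interval holds 3 peaks, none of them strong.

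The domain was divided into 8 sub-intervals by distance from the annotated MYC start at 127735434, using general knowledge of the locus and with earlier results of these data known. The densest was PVT1, from 50 kb downstream to the annotated end of that gene, with 319.8 peaks per Mb (Poisson interval 260.5 to 389). The blood enhancer interval, from 1.7 to 2.0 Mb downstream, held 213 per Mb (164 to 272), and the last interval, beyond 2.0 Mb, held 215 (163 to 279). The intervals of these last 2 overlap each other almost wholly, and a difference in density was not tested. The stretch of 50 kb on each side of MYC held 140.0 peaks per Mb, the middle desert 132 and the upstream desert 111. Lowest was the NOTCH-bound enhancer interval, from 1.4 to 1.5 Mb downstream, with 30 per Mb (6.19 to 87.7).

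The densest interval, PVT1, did not hold the most very strong peaks. Strong peaks per Mb broadly followed all peaks per Mb, though not in exact order. They numbered 50.7 per Mb in PVT1 and 45.4 in the last interval, against 21.3 in the middle desert and 20.4 in the upstream desert. The blood enhancer interval had the most strong peaks per Mb. The PVT1 interval held 21.4% of all members but 9.09% of the very strong ones. The blood enhancer interval held 13.6% of members and 40.9% of the very strong ones (9 of 22) on 10.0% of the length. Its share of very strong peaks was 14.1% (interval 6.64% to 25%), against 3.19% in the other intervals together (1.71% to 5.39%). These bounds do not overlap, but they treat neighbouring peaks as independent. The borders were also set with earlier results known, so this is no test of a difference. The 7.99% of the whole list lies inside the bounds of the blood enhancer interval. Taken singly, the interval just before it (10.0%, 1.23% to 31.7%), the MYC interval (7.14%, 0.181% to 33.9%) and the last interval (7.02%, 1.95% to 17.0%) have bounds that overlap with it. For strong peaks the shares were 28.1% (17.6% to 40.8%) in the blood enhancer interval and 17.6% (14.1% to 21.7%) in the other intervals, whose bounds do overlap, and the 22.1% of the whole list lies inside those of the blood enhancer interval. The median fold of the blood enhancer interval, 3.45, did not stand above the 3.59 of the other intervals with all peaks, and most peaks in either lay under 10-fold. The direction turned when only the more significant 50% of the list was used, with medians of 15.2-fold over 32 peaks in the blood enhancer interval and 6.80-fold over 212 in the other intervals. That cut removes every peak below 3.46-fold. The turn therefore restates the larger share of high-fold peaks and is not a separate result.

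**Figure D2:**
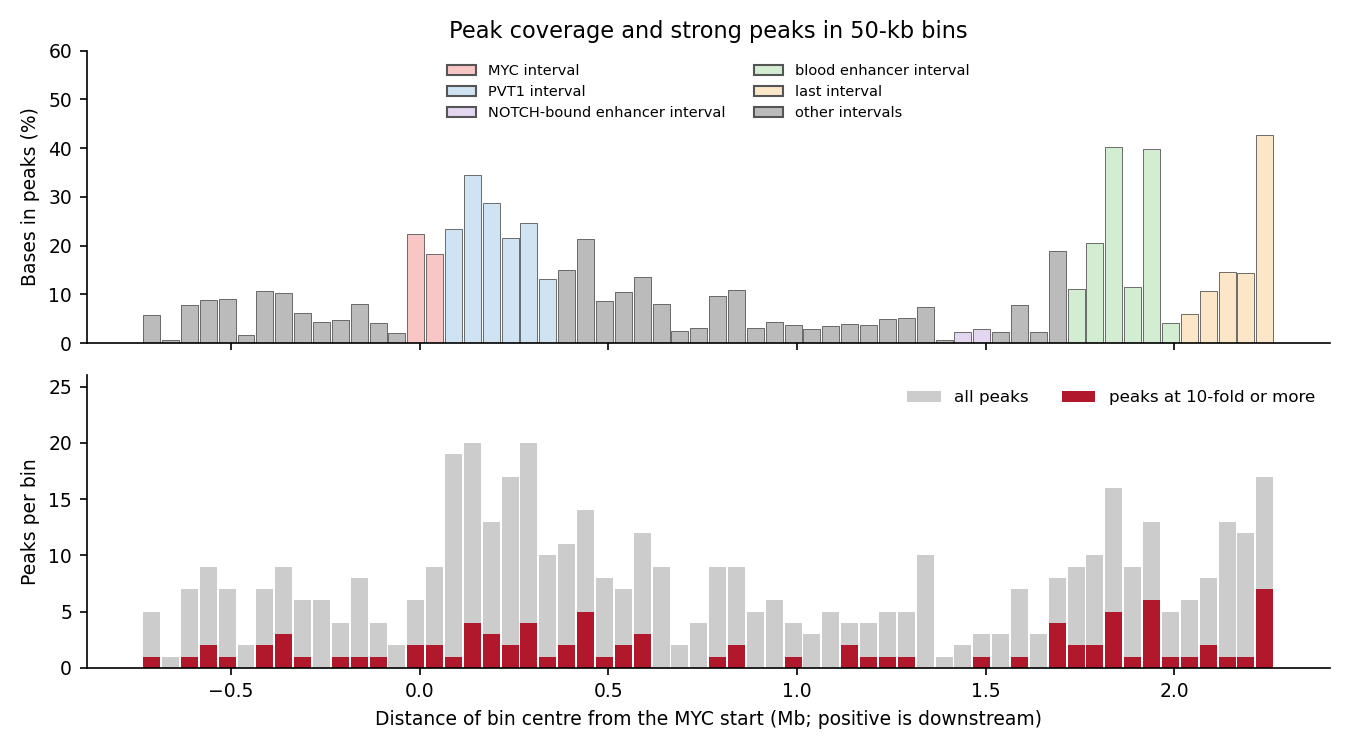
Bases in peaks (upper panel, percent) and number of peaks (lower panel, grey for all and red for those at 10-fold or more) in 60 bins of 50 kb, against distance from the MYC start. Coverage reaches 40.2% and 39.9% in 2 bins of the blood enhancer interval and 42.8% in the last bin, at CYRIB, while 16 of 60 bins have no strong peak.

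**Figure D3:**
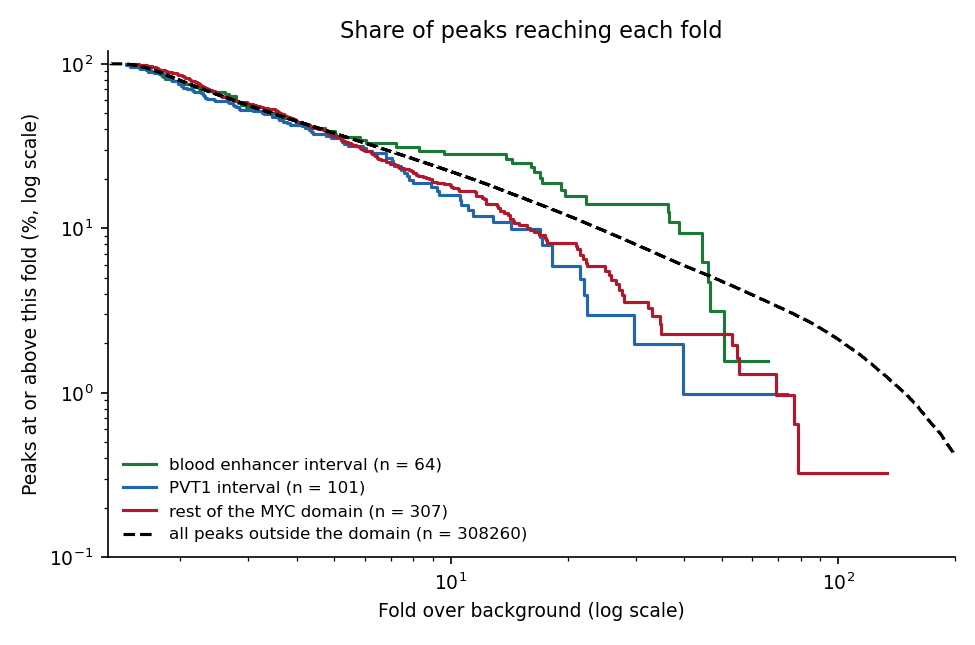
Percent of peaks that reach each fold or more (both axes log) in the blood enhancer interval, the PVT1 interval, the rest of the domain and all peaks outside the domain. The curves run together below about 5-fold. At 30-fold the blood enhancer interval stands at 14.1% and the PVT1 interval at 1.98%, against 7.99% outside the domain.

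The MYC gene itself (chromosome 8, 127735434 to 127742951) had 99.4% of its bases in peaks. Any reads of an ectopic MYC copy that align there are included. The main peak is 7399 bp wide and reached 77.1-fold (Poisson interval 75.3 to 78.9), which gives it rank 3 in the domain by fold and rank 9262 in the whole list. Its summit lies 1.27 kb before the annotated start and 197 bp from the nearer end of CASC11, a noncoding RNA gene beside MYC. A weaker peak of 14.5-fold and 2463 bp (127741281 to 127743743) took up the end of MYC and the sequence after it.

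Around the gene, the number of peaks and their coverage were one-sided, while their median fold was similar on both sides. Within 100 kb before the MYC start there were 5 peaks, covering 3.44% of the sequence, against 24 peaks and 25.9% within 100 kb after it. The stretch after the start includes MYC itself. Median fold within 100 kb was 3.55 before the start and 3.05 after it. At 500 kb the counts were 52 peaks before the start and 142 after it, with medians of 3.57 and 3.87-fold. Strong peaks numbered 10 of the 52 and 26 of the 142, so they followed the number of all peaks. The summit of the main MYC peak counts as before. No strong peak lay in the stretch of 115 kb before the main MYC peak, from 127619020 to 127733838. Just after the gene, a peak of 26.8-fold lay 24.6 kb from the MYC start (127759295 to 127761173), and a peak of 9.62-fold lay 31.6 kb from it.

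PVT1 makes a long noncoding RNA and hosts several microRNAs, and its promoter is known to compete with that of MYC for enhancers. Its start (127794524) had an 18.2-fold peak of 3363 bp with its summit 123 bp away, well below the 77.1-fold at MYC. In the PVT1 interval 15.8% of peaks were strong (9.33% to 24.4%), against 22.1% of the whole list. Inside PVT1 lay 99 summits, of which 15 were strong, and peaks covered 24.8% of the gene. The strongest of these, 73.9-fold (72.2 to 75.7), lay 314 kb from the MYC start (128047879 to 128051340) and contains the microRNA gene MIR1207. A 39.8-fold peak of 3900 bp lay 182 kb from the MYC start (127915546 to 127919445), and a 29.6-fold peak lay 307 kb from it (128041733 to 128043022).

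The microRNA genes of the domain were set against the positions of its peaks. Of 6, 5 were wholly inside a peak: MIR1207 in the 73.9-fold peak, MIR1208 in a 33.0-fold peak 415 kb from the MYC start (128149712 to 128150604), MIR1204 in the 18.2-fold peak at the PVT1 start, MIR1205 in a 12.8-fold peak and MIR3686, inside CCDC26, in a 2.60-fold peak. MIR1206 was in none, and the nearest summit, 1196 bp away, had 1.82-fold. The summit of the MIR1208 peak lies 18 bp from that gene. MIR1204, MIR1205, MIR1206 and MIR1207 all lie inside PVT1, where peaks covered 24.8% of bases. The share of all other microRNA genes inside peaks was not counted, so 5 of 6 is a description only.

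The middle desert, from the end of PVT1 to 1.4 Mb downstream, held 2 clusters of strong peaks and single ones between and beyond them. It had 137 members, of which 22 were strong (16.1%) and 3 very strong (2.19%), against 22.1% and 7.99% of the whole list. Peaks covered 7.13% of its bases. The strongest, 78.9-fold (77.1 to 80.7), lay inside the noncoding RNA gene LINC00824, 821 kb from the MYC start (128556547 to 128557390), and was the highest of the domain outside CYRIB. At 844 bp it was the narrowest of the 22 very strong peaks, whose median width was 2550 bp. A 53.1-fold peak of 2164 bp lay 516 kb from the MYC start (128250070 to 128252233). The longest stretch of the domain without any peak was 50.2 kb, from 128683860 to 128734074, and no strong peak lay in 205 kb from 128323251 to 128528017.

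The NOTCH-bound enhancer interval, known for driving MYC in developing and leukaemic T cells, held few peaks. None reached 10-fold (0%, interval 0% to 70.8%), and so few peaks cannot set this share apart from the 22.1% of the whole list. Their median of 6.97-fold lay above the 3.58 of the domain. Its 3 peaks had 3.08-fold (129157501 to 129157993), 6.97-fold (129185479 to 129186153) and 7.87-fold (129202385 to 129202868), and 1.65% of its 100 kb lay in peaks. The 205 kb from 129032957 to 129237495, which contain this interval, held no peak at 10-fold. In the blood enhancer interval, 21.8% of bases lay in peaks.

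CCDC26, a long noncoding RNA gene, spans most of the blood enhancer interval (129351694 to 129680239). It held 61 summits, 16 of them strong, where 22.1% of all peaks of the list were strong. Of the 22 very strong peaks of the domain, 8 had their summit inside it. From low to high coordinates, the very strong peaks from 1.7 to 2.0 Mb downstream had 50.9-fold at 1800.5 kb from the MYC start, 46.1 at 1811 kb, 65.8 at 1847 kb, 38.7 at 1852 kb, 44.4 at 1857 kb, 36.6 at 1901 kb, 44.6 at 1931 kb, 46.7 at 1947 kb and 36.4 at 1952 kb. These are 9 of the 18 strong peaks of the interval, and the cut at 30-fold sets the low end of their range. The 65.8-fold peak (129581484 to 129583951; interval 64.2 to 67.5) stood above the other 8 by more than counting error.

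The strong peaks of this stretch stood in groups. Strong peaks outside coding gene ends whose summits lay within 10 kb of each other were joined, and groups of at least 3 were counted. The domain held 9 such clusters, or 3.00 per Mb, against 1.36 per Mb over the rest of the genome. They took in 32 of its 89 strong peaks of this kind (36%), against 29.6% elsewhere. The 89 include the main MYC peak, by its summit. The domain also held more strong peaks than the median window of 3 Mb, 90 against 57, and the cluster values were not adjusted for that. Of the 9 clusters, 4 overlap CCDC26 and 3 of those lie in the blood enhancer interval.

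The cluster with most strong peaks, 5, ran from 129676290 to 129697579, across the high-coordinate end of CCDC26, and 67.5% of its 21.3 kb lay in peaks. A second ran from 129545818 to 129558235 and was 95.8% covered, mostly by a single peak of 7460 bp, the widest of the domain. Between these, the cluster from 129581484 to 129594149 held the 65.8-, 38.7- and 44.4-fold peaks. The remaining cluster in CCDC26 (129414492 to 129423975) lay 1679 to 1689 kb from the MYC start, just before the border set for the blood enhancer interval, with a highest peak of 68.9-fold (67.3 to 70.6). Moving that border outward by 50 kb brings it in.

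**Figure D4:**
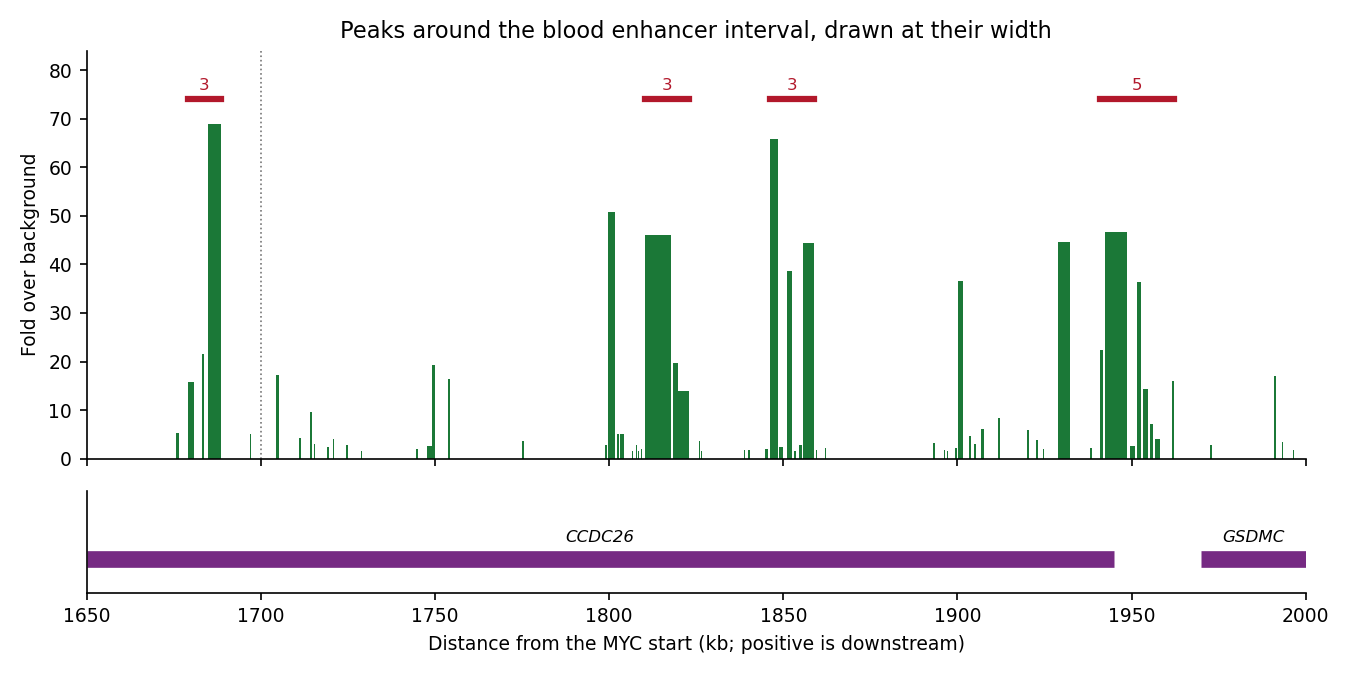
Fold over background of each peak from just before to the end of the blood enhancer interval, drawn at its width, against distance from the MYC start in kb, with CCDC26 and GSDMC below. Red lines mark 4 clusters with 3, 3, 3 and 5 strong peaks, and the dotted line is the border at 1.7 Mb; the cluster with the 68.9-fold peak lies just before it.

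Other clusters lay in PVT1 (127889771 to 127908354, 4 strong peaks, highest 22.4-fold; and 128035036 to 128051340, 3 strong peaks, highest 73.9-fold) and after it. In the middle desert a cluster of 4 with a highest fold of 27.1 ran from 128167419 to 128186399, and a cluster of 3 with a highest fold of 22.4 from 128311636 to 128323250. The last lay in CYRIB (129983418 to 129996569, 4 strong peaks, highest 54.7-fold). The upstream desert had none.

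The upstream desert (127000000 to 127685433) was the most sparsely covered of the long stretches, with 6.15% of its bases in peaks. It had 76 members, of which 14 were strong (18.4%, against 22.1% of the whole list) and 1 very strong (1.32%, against 7.99%). That peak, 34.6-fold (33.4 to 35.8), lay in intergenic sequence 228 kb before the MYC start (127507405 to 127508449). A 27.7-fold peak lay where the noncoding genes CASC21 and CASC8 overlap, 369 kb before MYC (127365715 to 127366538), and a 21.2-fold peak lay in CASC8, 308 kb before it (127426718 to 127427403). Both genes lie in the cancer risk region.

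Several genes of this desert held no summit at all. PCAT1, PCAT2 and PRNCR1, noncoding RNA genes named for prostate cancer, and POU5F1B, a retrogene copy of the pluripotency gene POU5F1, had none inside. These genes are short, from 3.78 to 12.7 kb, in a desert with 111 peaks per Mb. Whether genes of such length usually hold a summit was not counted. The nearest summit to POU5F1B, 2314 bp away, had 3.98-fold. CCAT1, a noncoding RNA gene studied in colon cancer, had a 16-fold peak at its low-coordinate end and 4 summits inside, at most 4.16-fold. CCAT2, which carries a colon cancer risk variant in other studies, had a single summit of 5.17-fold.

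Of 19 genes of the domain named for description, microRNAs aside, 14 held a summit and 9 a strong one. Their lengths run from 1.75 kb (CCAT2) to 329 kb (CCDC26). The same shares over all genes were not counted, so these counts are descriptions only. An end with a strong summit within 1 kb was found at 4 of them: MYC, PVT1, CASC11 and CCAT1. CASC11 shares its 77.1-fold peak with MYC. The remaining gene without a summit inside was TMEM75, listed as LINC02912 in the annotation, which lies inside PVT1.

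The last interval held the strongest peak of the domain, and it lay in another gene. A peak of 134-fold (132 to 136) and 2892 bp (129938732 to 129941623) lay inside CYRIB, which encodes an inhibitor of the actin regulator RAC1, 2204 kb from the MYC start. It was the only member above 100-fold and ranks 3836 in the whole list. Peaks of 55.5-fold (129971329 to 129974336) and 54.7-fold (129993939 to 129996569) lay in the same gene, whose annotated end lies beyond the domain. Together CYRIB held 42 of the members, 9 of them strong. In the last interval 21.1% of peaks were strong, against 22.1% of the whole list. GSDMC, a gasdermin gene between CCDC26 and CYRIB, had 9 summits, at most 17.0-fold, and 4.83-fold near its high-coordinate end.

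Width followed fold within the domain as it did elsewhere, with a Spearman correlation across peaks of 0.80 in the domain and 0.82 over all other peaks, a description since both values come from the same signal. Median width was 478 bp in the domain and 482 bp elsewhere. Peaks wider than 2 kb numbered 24 (5.08%, against 5.71% of the whole list), and 7 of them lay in the blood enhancer interval and 7 in the PVT1 interval. Peaks wider than 5 kb numbered 3 (0.636%, against 0.553%): the 7460 bp peak and a 6421 bp peak (129677756 to 129684176) of the blood enhancer interval and the 7399 bp peak at MYC. The 22 very strong peaks made up 19.1% of the bases in peaks of the domain, against 25% for peaks of that strength elsewhere.

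**Figure D5:**
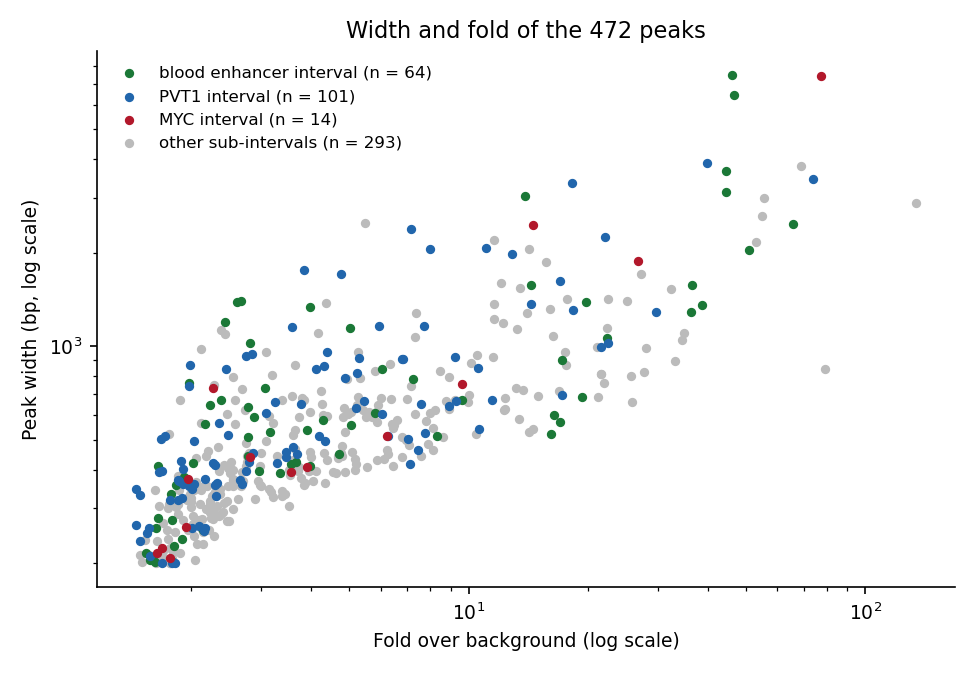
Width in bp against fold over background (both axes log) for the 472 peaks, coloured by sub-interval. The 3 peaks wider than 5 kb lie at 46.1, 46.7 and 77.1-fold, in the blood enhancer and MYC intervals, and the 134-fold peak of CYRIB lies alone at the right with 2892 bp.

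At the borders of the domain, the first member had 2.26-fold (127024615 to 127024905) and the last 4.36-fold (129997309 to 129998684). Just outside lay peaks of 2.12-fold (126999753 to 127000020) and 16.2-fold (129999080 to 130000686), with summits 85 and 100 bp past the borders. The stronger of these continues the run of peaks in CYRIB.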

How the data were processed

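Per the labels' protocols, each library came from 50000 cells, and transposition took 45 minutes before paired-end sequencing with reads 75 nucleotides long. The submitters' processing notes list Picard 2.2.4, Bowtie2 2.2.8 and Trim Galore 0.6.5, and the deposited peak names carry GENCODE 36, GRCh38 and MACS 2.1.0. How duplicates were handled, whether cut sites were shifted and which libraries were pooled are not given in the sources used here.

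The authors' deposited list gives each peak a position, a score, a fold ratio, and −log10 p and −log10 q values; score and q were not used. A background of 93.5 made 100% of 243585 pileups under 1000 whole to within 0.1, with Poisson −log10 p matching to within 0.000491 on 199198 peaks, those with values under 200. A constant background does not correct for local copy number or mappability. Depth per library is unknown. Gene starts and ends came from RefSeq GRCh38.p14 without exons, and no genome sequence was used. The directions of MYC and PVT1 are from general knowledge.

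Sub-intervals and gene lists were chosen with earlier results of these data known. Peaks named are the 20 highest, the 3 highest of each sub-interval, the 5 widest and those at listed genes; others were chosen after their values were seen. Calculations used Python 3.11.15, numpy 2.4.6, pandas 2.3.3, scipy 1.17.1 and matplotlib 3.10.9, and the background, coverage and interval functions were tested on simulated data. Alternatives were the more significant 50% of peaks, membership by overlap (1 bp) or midpoint, borders of the blood enhancer interval moved by 50 kb, and joining distances of 5 and 20 kb.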

Additional observations from a re-analysis of the deposited data

How the results depend on the processing

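Of 21 recalculations of 7 results, 12 stayed within the 95% interval of the value (order statistics for a median, exact binomial for a share of peaks or of bases) or, for counts, within 1.5 times of it, and 9 did not. Bases are not independent, so the interval of a coverage is narrow (21.6% to 21.9% for the blood enhancer interval) and any shift passes it. With the more significant 50% of the list, the domain held 244 peaks with a median of 7.08-fold, of which 36.9% were at 10-fold or more, against a median of 8.58-fold and 44.2% for the other peaks left. Peaks then covered 8.15% of the domain and 16.3% of the blood enhancer interval, whose median fold was 15.2, against 7.08 for the whole domain on the same peaks and 3.45 with all peaks. These shifts follow from the removal of every peak below 3.46-fold. Coverage of the blood enhancer interval was 18.8% with its borders 50 kb outward and 25.1% with them 50 kb inward, so the value of 21.8% depends on where the borders are set. Joining summits within 5 kb left 4 clusters in place of 9. Membership by overlap or midpoint changed the number of peaks by at most 2. No paired analysis was possible because the list names no library and carries no replicate numbers. Effects of doxycycline, day and line, and variation between libraries, were not tested here, and weak peaks depend on the summed depth of the pool.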
